A study of Mus musculus with 18 samples.

Results

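A set of 7 genes for RNA-decay factors was followed through the TNF response of mouse fibroblasts: the ZFP36 family (Zfp36, Zfp36l1 and Zfp36l2), the Regnase genes Zc3h12a and Zc3h12c, and the Roquin genes Rc3h1 and Rc3h2. They were chosen by symbol with earlier results of these data known, and are 7 of the 55536 genes in the count table. All 7 passed the filter on low counts that left 16322 genes for testing. RNA came from 3 immortalised mouse embryonic fibroblast (MEF) lines: wild type (WT), p65 KO, in which the NF-κB subunit encoded by Rela is knocked out, and IKK2 KO, in which the IκB kinase subunit encoded by Ikbkb is knocked out. Each line was untreated or had received 10 ng/ml of TNF, an inflammatory cytokine, for 45 or 90 min, which gave 9 groups of 2 libraries, called a and b. All 3 lines are immortalised, and each genotype was represented by 1 line, so genotype and line cannot be told apart. No label says whether the libraries of a group came from separate cultures, so the p-values measure the spread between these libraries, which may be technical.

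The ZFP36 proteins bind AU-rich elements in the 3′ untranslated region (3′UTR) of short-lived mRNAs, such as those of cytokines and immediate-early genes, and recruit deadenylases that start the decay of the message. Regnase-1, the product of Zc3h12a, is an endonuclease that cuts stem-loops in the 3′UTR of inflammatory mRNAs, and the Roquin proteins bind similar stem-loops and recruit deadenylases. Zfp36 and Zc3h12a are known as inducible feedback genes of inflammation.

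Every library held between 16708346 and 23469439 counts. Untreated Rela levels were 63.8 ± 0.879 CPM (counts scaled to a common library total by TMM; mean ± SD, n = 2) in WT, 5.68 ± 0.606 in p65 KO and 69.7 ± 3.84 in IKK2 KO. Ikbkb stood at 59.9 ± 0.760, 42.7 ± 0.0141 and 43.4 ± 0.371 CPM in the same order, which does not check the IKK2 label. Of 12 fibroblast markers, 10 reached 1 CPM in WT, 10 in p65 KO and 11 in IKK2 KO. Their summed level was 11400 to 11797 CPM in WT, 5044 to 5179 in p65 KO and 11285 to 11722 in IKK2 KO. Of the 8 myeloid markers, whose cell type is a rich source of these factors, the sum was at most 2.33 CPM in any library, and Adgre1 and Tyrobp were at 0 counts in all of them. The summed levels of the epithelial, endothelial and muscle lists were at most 3.23, 1.37 and 2.79 CPM. The neural list summed to 29.1 to 32.7 CPM in WT, 39.9 to 44.3 in p65 KO and 2.23 to 3.50 in IKK2 KO, with Rbfox3 at 0 counts. Its highest gene was Map2 in WT and p65 KO (means of 17.7 and 36.2 CPM) and Tubb3 in IKK2 KO (1.69 CPM).

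The 3′UTRs of 6 of the 7 genes hold a core motif that the ZFP36 family reads, and that of Zc3h12a does not. TATTTAT, the core of an AU-rich element, and its 9-base form TTATTTATT were searched on the transcript strand of 1 coding transcript per gene (GENCODE M21, GRCm38), overlapping matches included, and every TTATTTATT match also contains TATTTAT. The sites below are shown because 5 of the 7 genes hold exactly 1 TTATTTATT, printed in capitals with its flanks.
Zfp36: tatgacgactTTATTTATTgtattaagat
Zfp36l1: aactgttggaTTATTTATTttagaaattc
Zfp36l2: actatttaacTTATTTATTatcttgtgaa
Rc3h1: actttactcaTTATTTATTgagatgagga
Rc3h2: caaagacattTTATTTATTttactctgta
These sites start at bases 589, 1404, 821, 2256 and 1928 of the 3′UTR, in the order listed. Among 19654 3′UTRs of at least 100 bases, 7.67% held TTATTTATT and 27.9% held TATTTAT. Zfp36, Zfp36l1 and Zfp36l2 each had 3 TATTTAT matches, in 3′UTRs of 774, 1835 and 1822 bases. Of 2393 3′UTRs within 20% of the length of that of Zfp36, 19.6% held TATTTAT and 4.18% the longer form. Rc3h1 and Rc3h2 had 2 and 3 TATTTAT matches in long 3′UTRs of 7181 and 5160 bases, a length at which 79.6% and 67.6% of 3′UTRs held at least 1. At the same lengths 28.6% and 22.3% held TTATTTATT, and at the lengths of Zfp36l1 and Zfp36l2 9.93% and 9.90% did. TATTTAT was held by 39.0% and 38.9% at the lengths of Zfp36l1 and Zfp36l2. Zc3h12c had 2 matches in 4062 bases and no TTATTTATT, at a length where 61.5% held TATTTAT and 17.3% the longer form. Zc3h12a had neither motif in its 856 bases. Most 3′UTRs of that length had none either, as 20.7% held TATTTAT and 4.85% the longer form. A match is a run of letters, and binding was not measured.

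Promoters were taken from RefSeq (GRCm38.p6), 250 bases before to 50 bases after the start site, and 6 of the 7 genes had an entry. They were searched on both strands for the κB motif, the CArG box bound by serum response factor, AP-1 sites (TGACTCA or TGAGTCA) and the cAMP response element TGACGTCA, and on the gene's strand for TATAAA. The windows around 2 matches are shown because they belong to Zfp36 and Zfp36l1, the ZFP36 family genes with a promoter entry, with the match in capitals.
Zfp36, CArG box: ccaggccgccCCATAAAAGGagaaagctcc
Zfp36l1, TATAAA: caccaaatctTATAAAttgggctttg
The CArG box of Zfp36 starts 58 bases before the RefSeq start site, on the minus strand in the window chr7:28379267-28379296, and the 5′ exon of a longer GENCODE transcript also covers this stretch. A CArG box was present in 1.63% of 32851 promoters of the same length. The TATAAA of Zfp36l1 starts 29 bases before the start site, on the minus strand in chr12:80113027-80113052, and 8.32% of promoters held one. Rc3h1 had 1 AP-1 match (5.20% of promoters), and 1 of the 2 promoters of Zc3h12c had a κB match (8.46% of promoters). None of these motifs was found in the window of Zc3h12a, whose last 120 bases before the start site (chr4:125127882-125128001, minus strand) are shown because this gene rose with TNF in WT.
Zc3h12a: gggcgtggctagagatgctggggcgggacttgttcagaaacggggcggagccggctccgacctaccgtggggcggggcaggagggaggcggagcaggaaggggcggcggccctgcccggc
The letters of the κB motif are also absent from the window of Zfp36. This says only that they are not in these 300 bases.

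Zfp36 (ENSMUSG00000044786, chr7:28376784-28380253, minus strand, GRCm38) encodes tristetraprolin, the best-studied member of the family. In WT it stood at 12.9 and 15.9 CPM untreated, 88.3 and 89.9 CPM after 45 min of TNF, and 15.9 and 14.4 CPM after 90 min. Both 45 min libraries lay far above all other WT libraries, and the untreated and 90 min libraries overlapped. In IKK2 KO the values were 7.98 and 8.48 CPM untreated, 42.5 and 40.3 CPM at 45 min, and 7.04 and 8.02 CPM at 90 min, the same shape from a lower start. In p65 KO they were 7.72 and 8.10 CPM untreated, 11.5 and 9.87 CPM at 45 min, and 9.51 and 9.34 CPM at 90 min, with no peak of that kind. Counts per library ranged from 134 to 1783.

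**Figure D1:**
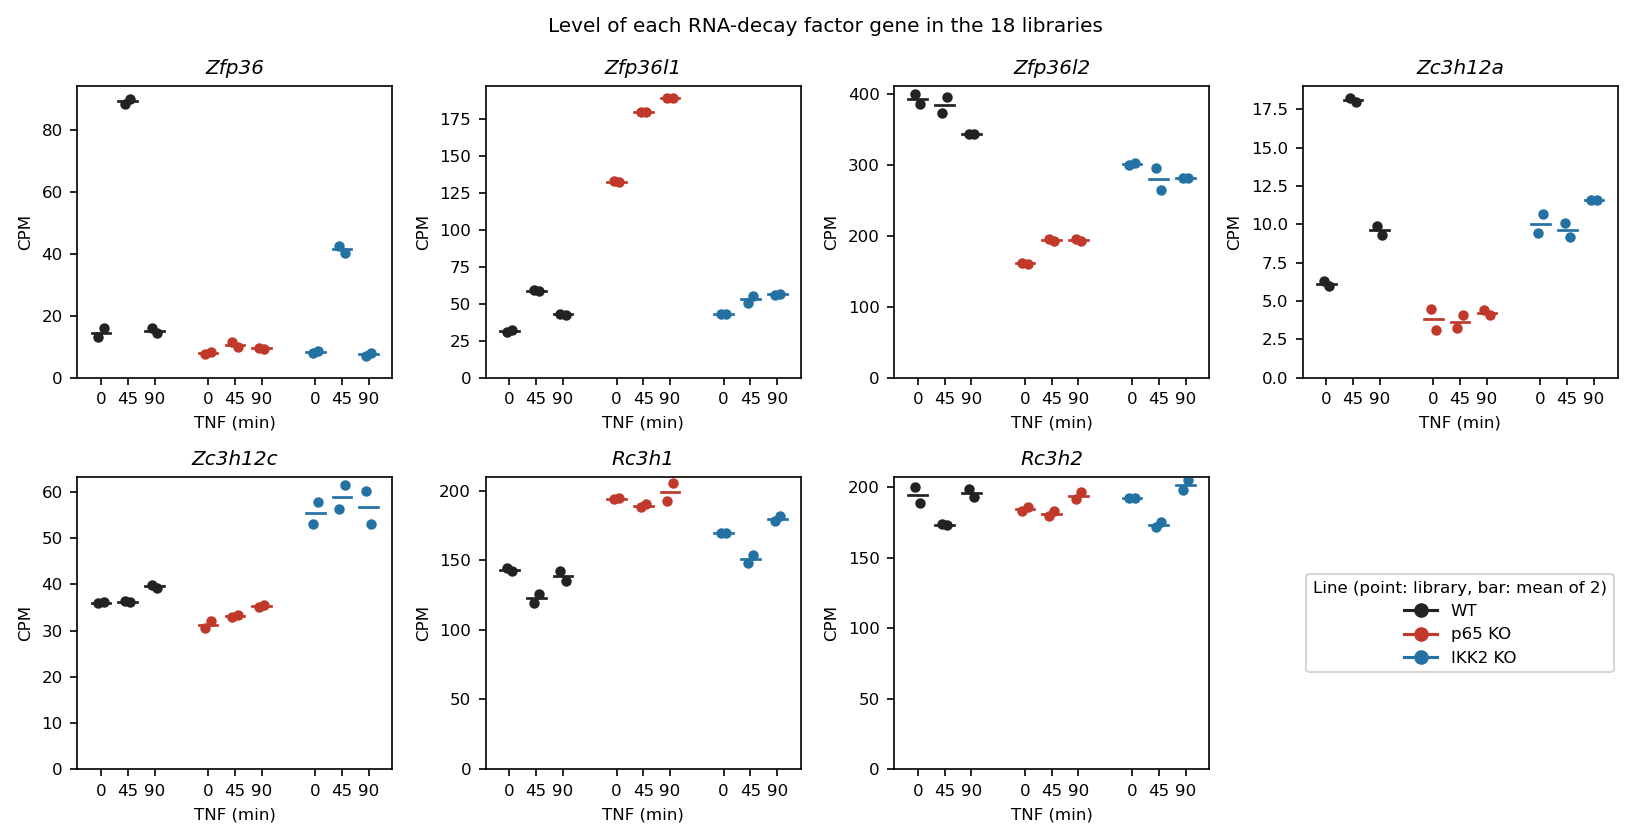
Levels of the 7 genes in CPM (vertical axes starting at 0) against minutes of TNF, with 1 point per library and a bar at the mean of 2 libraries. Zfp36 peaks at 45 min in WT (88.3 and 89.9 CPM) and IKK2 KO (42.5 and 40.3 CPM), Zc3h12a in WT (18.3 and 17.99 CPM), and Zfp36l1 is highest throughout in p65 KO.

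Zfp36 rose 6.12-fold at 45 min in WT (log2 change 2.61 ± 0.06 SE, adjusted p = 2.06e-32, edgeR quasi-likelihood test with Benjamini-Hochberg adjustment over all tested genes, as for every adjusted p here unless another tool is named). It rose 5.03-fold in IKK2 KO (2.33 ± 0.09, adjusted p = 1.44e-24). In p65 KO the rise was 1.34-fold (0.42 ± 0.11, adjusted p = 0.0228). That call was lost with DESeq2 and on leaving out p65 KO untreated library a, untreated library b or 45 min library a, with adjusted p up to 0.34. The response in p65 KO was smaller than in WT, with a difference of −2.19 ± 0.13 on the log2 scale (95% interval −2.45 to −1.93, adjusted p = 1.45e-17). The IKK2 KO response exceeded that of p65 KO by 1.91 ± 0.14 (adjusted p = 1.22e-13). Between IKK2 KO and WT the difference was −0.28 with an interval of −0.53 to −0.04, and it did not pass the adjusted test (adjusted p = 0.245). Without WT untreated library b it did (adjusted p = 0.0461). These differences share the groups of each line, so they are not independent of each other.

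By 90 min the Zfp36 peak was over. From 45 to 90 min its level fell to 0.171 of the peak in WT (log2 change −2.55 ± 0.06, adjusted p = 1.21e-31) and to 0.182 of it in IKK2 KO (−2.46 ± 0.09, adjusted p = 1.48e-25). At 90 min against untreated cells the log2 change was 0.06 ± 0.09 in WT (adjusted p = 0.793), −0.13 ± 0.13 in IKK2 KO (adjusted p = 0.738) and 0.25 ± 0.11 in p65 KO (adjusted p = 0.167). None of the 3 passed the test. Untreated Zfp36 was lower than in WT in p65 KO (−0.88 ± 0.10) and in IKK2 KO (−0.82 ± 0.11). The 2 knock-out lines differed from each other by 0.05, with an interval of −0.19 to 0.30. In order of mean level, WT at 45 min was first and IKK2 KO at 45 min second, apart from all other groups. WT at 90 min and untreated WT overlapped in the next places, and untreated IKK2 KO, untreated p65 KO and IKK2 KO at 90 min overlapped, neighbour by neighbour, at the bottom.

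Zfp36l1 (ENSMUSG00000021127, chr12:80107754-80113013, minus strand) encodes a paralog that binds the same elements. It was the only member that rose at both times in all 3 lines. In WT its level went from 30.8 and 32.0 CPM to 59.0 and 58.3 CPM at 45 min and 43.1 and 42.5 CPM at 90 min. In p65 KO it went from 133.1 and 132.1 CPM to 179.3 and 179.4 CPM and then 189.0 and 189.3 CPM. In IKK2 KO it went from 42.7 and 43.0 CPM to 50.5 and 55.1 CPM and then 56.1 and 56.7 CPM. In each line the treated libraries lay above the untreated ones without overlap.

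At 45 min Zfp36l1 rose 1.87-fold in WT (log2 change 0.90 ± 0.05, adjusted p = 1.68e-19). The rise in p65 KO was 1.35-fold (0.44 ± 0.03, adjusted p = 1.72e-14), and that in IKK2 KO 1.23-fold (0.30 ± 0.05, adjusted p = 1.16e-05). Both were smaller than the WT response, with differences of −0.46 ± 0.06 for p65 KO (adjusted p = 3.87e-08) and −0.60 ± 0.07 for the IKK2 KO line (adjusted p = 1.29e-08). At 90 min the changes were 0.45 ± 0.05 in WT, 0.51 ± 0.03 in p65 KO and 0.40 ± 0.05 in IKK2 KO. The intervals of the differences from WT were then −0.05 to 0.19 for p65 KO and −0.19 to 0.09 for IKK2 KO. WT passed its peak, with a fall of 0.45 ± 0.05 from 45 to 90 min (log2 change −0.45, adjusted p = 1.52e-10). In p65 KO and IKK2 KO the same step was 0.08 ± 0.03 (adjusted p = 0.167) and 0.09 ± 0.05 (adjusted p = 0.184).

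Zfp36l2 (ENSMUSG00000045817, chr17:84183931-84187947, minus strand) encodes the third paralog, and moved little with TNF. It read 400 and 386 CPM in untreated WT, 374 and 396 CPM at 45 min, and 344 CPM in both 90 min libraries. In p65 KO it read 162 and 161 CPM untreated, 196 and 193 CPM at 45 min, and 196 and 193 CPM at 90 min. In IKK2 KO it read 300 and 303 CPM untreated, 296 and 265 CPM at 45 min, and 283 and 281 CPM at 90 min. The lines did not overlap at any time, with WT highest and p65 KO lowest.

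The direction of the small Zfp36l2 response differed between lines. It rose 1.20-fold in p65 KO at 45 min (log2 change 0.27 ± 0.03, adjusted p = 1e-06) and by the same 0.27 ± 0.03 at 90 min (adjusted p = 2.81e-07). In WT it was at −0.03 ± 0.03 at 45 min (adjusted p = 0.656) and fell by 0.19 ± 0.03 at 90 min (log2 change −0.19, adjusted p = 9.58e-06). The p65 KO response exceeded that of WT by 0.30 ± 0.05 at 45 min (adjusted p = 7.57e-06) and by 0.46 ± 0.05 at 90 min (adjusted p = 5.34e-10). In IKK2 KO the log2 change at 45 min was −0.10 ± 0.03 (adjusted p = 0.0386), a call lost in 6 of 8 alternatives, with adjusted p up to 0.804, among them leaving out untreated library a, untreated library b or 45 min library b. The IKK2 KO response was lower than that of p65 KO, with differences of −0.37 ± 0.05 at 45 min (adjusted p = 2.93e-07) and −0.36 ± 0.05 at 90 min (adjusted p = 2.59e-06). In p65 KO at 45 min the nuclear RNAs Malat1 (log2 change −0.26), Neat1 (−0.47) and Kcnq1ot1 (−0.43) were lower than in untreated cells, and at 90 min Neat1 (0.57) and Kcnq1ot1 (0.30) were higher. Their part in the changes of 0.27 to 0.51 seen in this line was not tested. In IKK2 KO Neat1 was higher at 45 min (0.31) and 90 min (0.31) and Kcnq1ot1 at 90 min (0.30), sizes like those of the Zfp36l1 rises in that line (0.30 and 0.40), and their part was not tested either. In WT Malat1 was higher at 45 min (0.14) and Neat1 at 90 min (0.09).

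**Figure D2:**
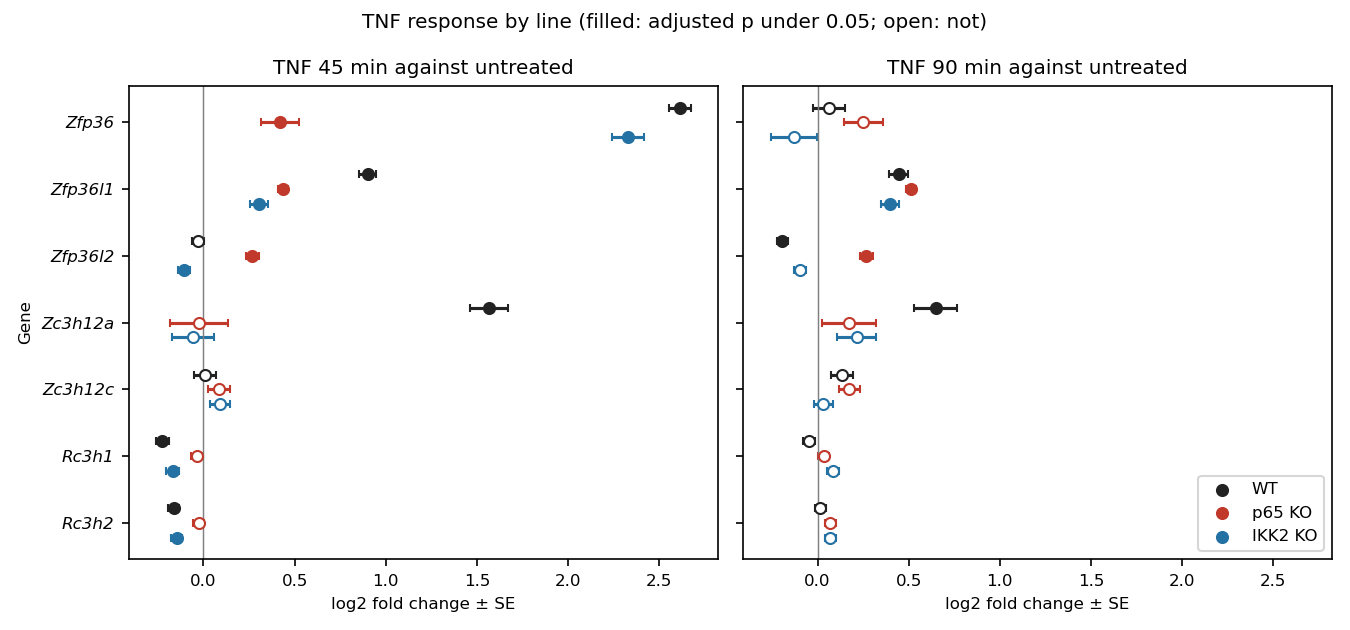
Log2 fold change against untreated cells of the same line (horizontal axis, error bars 1 SE) for each gene and line at 45 min (left) and 90 min (right), with filled points for an adjusted p under 0.05. Zfp36 in WT (2.61) and IKK2 KO (2.33) and Zc3h12a in WT (1.57) stand far to the right at 45 min, and Zfp36 is back near 0 at 90 min.

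The balance within the ZFP36 family differed between the lines before TNF was added. Untreated p65 KO held 4.21-fold more Zfp36l1 than WT (log2 difference 2.08 ± 0.04, adjusted p = 5.08e-37), and its Zfp36l2 was at 0.411 of WT (−1.28 ± 0.03, adjusted p = 1.82e-32). In untreated IKK2 KO Zfp36l1 was 1.36-fold higher (0.45 ± 0.05) and Zfp36l2 was at 0.767 of WT (−0.38 ± 0.03). Levels of different genes were compared as CPM per kilobase of the union of annotated exons. On that scale Zfp36l2 made up 88.4% of the family sum in untreated WT, 83.6% in IKK2 KO and 49.5% in p65 KO. Zfp36l1 made up 8.34, 14.0 and 48.0% in the same order. In bulk RNA fewer cells and less RNA per cell cannot be told apart, so these shares say nothing of single cells.

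In WT and IKK2 KO the share of Zfp36 in that balance was raised for a short time with TNF. The share of Zfp36 in the family sum was 3.30% in untreated WT, 16.6% at 45 min and 3.76% at 90 min. In IKK2 KO it was 2.32, 10.9 and 2.15%. In p65 KO it stayed between 2.24 and 2.60%. The exon union of Zfp36 (3.47 kb) is longer than its coding transcript (2.79 kb). With the length of 1 coding transcript per gene, an alternative chosen after seeing the data, its share at 45 min was 19.9% in WT, 13.3% in IKK2 KO and 3.21% in p65 KO. On that scale the share of Zfp36l1 was 8.27% in untreated WT, 12.2% at 45 min and 12.2% at 90 min. In IKK2 KO it was 14.0, 15.8 and 18.6%, and in p65 KO 47.7, 50.4 and 52.0%. With the exon union, the family sum was 126 ± 1.87 CPM per kb in untreated WT (SD, n = 2), 154 ± 4.56 at 45 min and 116 ± 0.509 at 90 min. In p65 KO it was 92.4 ± 0.517, 118 ± 0.960 and 121 ± 0.505, and in IKK2 KO 102 ± 0.647, 109 ± 5.48 and 101 ± 0.121. The sums were not tested.

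**Figure D3:**
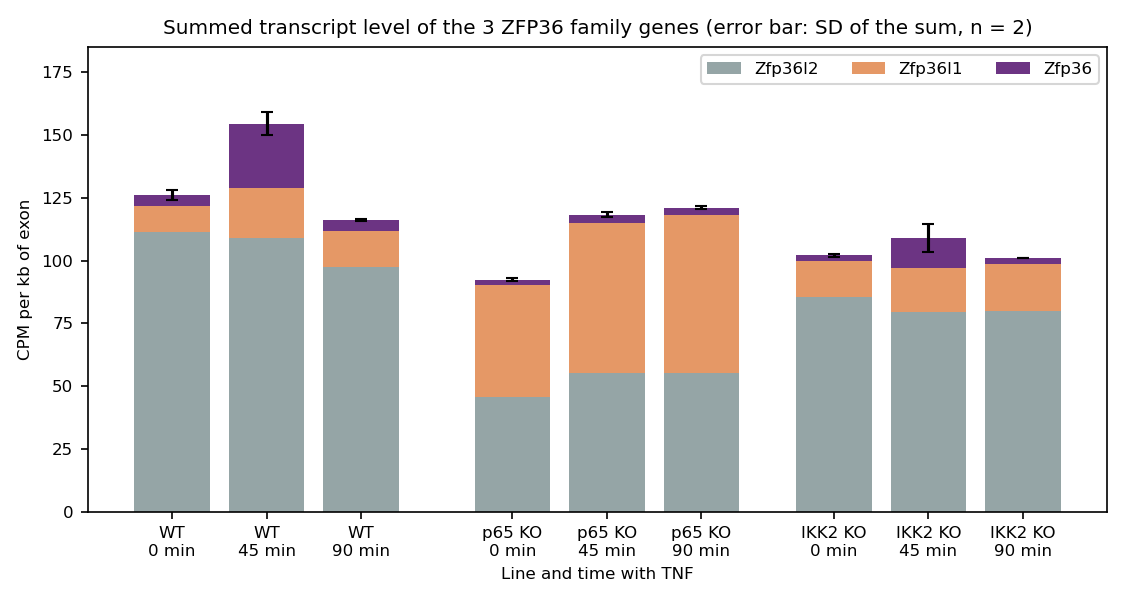
Summed level of the 3 ZFP36 family genes in CPM per kilobase of exon (stacked bars from 0, mean of 2 libraries, error bar the SD of the sum) by line and minutes of TNF. The Zfp36 segment widens at 45 min in WT and IKK2 KO (16.6 and 10.9% of the sum), and in p65 KO Zfp36l1 and Zfp36l2 are of similar size.

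Zc3h12a (ENSMUSG00000042677, chr4:125118423-125127840, minus strand) encodes Regnase-1. In WT it stood at 6.29 and 5.99 CPM untreated, 18.3 and 17.99 CPM at 45 min, and 9.90 and 9.32 CPM at 90 min. In p65 KO the 6 libraries lay between 3.12 and 4.47 CPM, and the groups overlapped. In IKK2 KO it read 9.41 and 10.6 CPM untreated, 10.1 and 9.15 CPM at 45 min, and 11.60 and 11.61 CPM at 90 min. The 45 min WT libraries were the highest of all 18. The gene had 65 to 369 counts per library, the fewest of the 7 genes.

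Zc3h12a rose 2.96-fold in WT at 45 min (log2 change 1.57 ± 0.10, adjusted p = 2.76e-16) and was still 1.57-fold above untreated at 90 min (0.65 ± 0.12, adjusted p = 7.18e-05), after a fall of 0.92 ± 0.10 from the peak (log2 change −0.92, adjusted p = 4.07e-10). In p65 KO the change at 45 min was −0.03 ± 0.16 (adjusted p = 0.986), and IKK2 KO had −0.06 ± 0.11 (adjusted p = 0.878). Both responses were smaller than that of WT, with a difference of −1.59 ± 0.19 for p65 KO (adjusted p = 2.93e-08) and one of −1.62 ± 0.16 for IKK2 KO (adjusted p = 1.11e-10). The 2 knock-out lines differed by −0.03 with an interval of −0.43 to 0.37, so a difference within those bounds is not excluded. At 90 min the differences from WT were −0.48 in p65 KO (interval −0.86 to −0.09, adjusted p = 0.168) and −0.44 in IKK2 KO (interval −0.76 to −0.11, adjusted p = 0.191). The p65 KO difference passed the test without p65 KO untreated library b (adjusted p = 0.036). Untreated Zc3h12a was lower in p65 KO than in WT (−0.70 ± 0.14) and higher in IKK2 KO (0.71 ± 0.12).

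Zfp36 and Zc3h12a thus parted in the IKK2 KO line. There Zfp36 rose 5.03-fold at 45 min, while Zc3h12a stood at 0.961 of its untreated level with an interval of −0.29 to 0.17 on the log2 scale. The ratio of the 2 responses was not itself tested.

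Zc3h12c (ENSMUSG00000035164, chr9:52111344-52168572, minus strand), a paralog of Zc3h12a, did not pass the test for a TNF response in any line. Its mean level was 36.0, 36.3 and 39.6 CPM in WT at 0, 45 and 90 min, 31.3, 33.2 and 35.3 CPM in p65 KO, and 55.5, 59.0 and 56.7 CPM in IKK2 KO. The response with the smallest adjusted p was that of p65 KO at 90 min (0.18 ± 0.06, adjusted p = 0.061), which passed without the low-count filter and with only the libraries compared, at adjusted p down to 0.0261. Untreated, it was 1.54-fold higher in IKK2 KO than in WT (0.62 ± 0.06, adjusted p = 3.34e-13) and lower in p65 KO (−0.20 ± 0.06, adjusted p = 0.00197). Zc3h12a made up 28.8% of the summed Zc3h12a and Zc3h12c level per kilobase of exon in untreated WT and 54.3% at 45 min, and between 20.7 and 32.8% in the groups of the knock-out lines.

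The Roquin genes went the other way. Rc3h1 (ENSMUSG00000040423, chr1:160906418-160974978, plus strand) read 145 and 142 CPM in untreated WT, 120 and 126 CPM at 45 min, and 142 and 135 CPM at 90 min. In IKK2 KO it read 170 and 169 CPM, then 148 and 154 CPM, then 178 and 182 CPM. In p65 KO it read 194 and 195 CPM, then 188 and 190 CPM, then 193 and 205 CPM. The 45 min libraries were below the others of their line in all 3 lines, by the least in p65 KO.

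Rc3h1 fell at 45 min by 0.23 ± 0.03 in WT (log2 change −0.23, adjusted p = 2.69e-06) and by 0.17 ± 0.03 in IKK2 KO (log2 change −0.17, adjusted p = 0.00046). It then rose from 45 to 90 min by 0.18 ± 0.04 (adjusted p = 0.000182) and 0.25 ± 0.03 (adjusted p = 1.16e-07). In p65 KO the change at 45 min was −0.04 ± 0.03 (adjusted p = 0.685). The p65 KO response differed from that of WT by 0.19 ± 0.05 (adjusted p = 0.00538), a call lost without WT 45 min library a (adjusted p = 0.084). The difference between IKK2 KO and p65 KO was −0.13 (interval −0.23 to −0.04, adjusted p = 0.0871). Untreated Rc3h1 was 1.36-fold higher in p65 KO (0.44 ± 0.03) and 1.18-fold higher in IKK2 KO (0.24 ± 0.03) than in WT.

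Rc3h2 (ENSMUSG00000075376, chr2:37370069-37422903, minus strand) was the flattest of the 7 genes, with group means from 173 to 202 CPM. In WT it read 200 and 189 CPM, then 174 and 173 CPM, then 199 and 193 CPM, so the 45 min libraries lay apart from the rest. It fell at 45 min by 0.16 ± 0.03 in WT (log2 change −0.16, adjusted p = 9.44e-05) and by 0.15 ± 0.03 in IKK2 KO (log2 change −0.15, adjusted p = 0.00108). From 45 to 90 min it rose by 0.18 ± 0.03 in WT and 0.22 ± 0.03 in IKK2 KO. In p65 KO the change at 45 min was −0.03 ± 0.03 (adjusted p = 0.804). The difference from WT was 0.14 ± 0.04 (adjusted p = 0.0398), which was lost in 8 of 12 alternatives with adjusted p up to 0.26, among them leaving out either WT 45 min library, either p65 KO untreated library, WT untreated library a or p65 KO 45 min library b. Its untreated difference between p65 KO and WT was −0.07 ± 0.03 (adjusted p = 0.0211), lost in 4 of 8 alternatives, with adjusted p up to 0.444, 3 of which leave out WT untreated library a or either p65 KO untreated library.

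**Figure D4:**
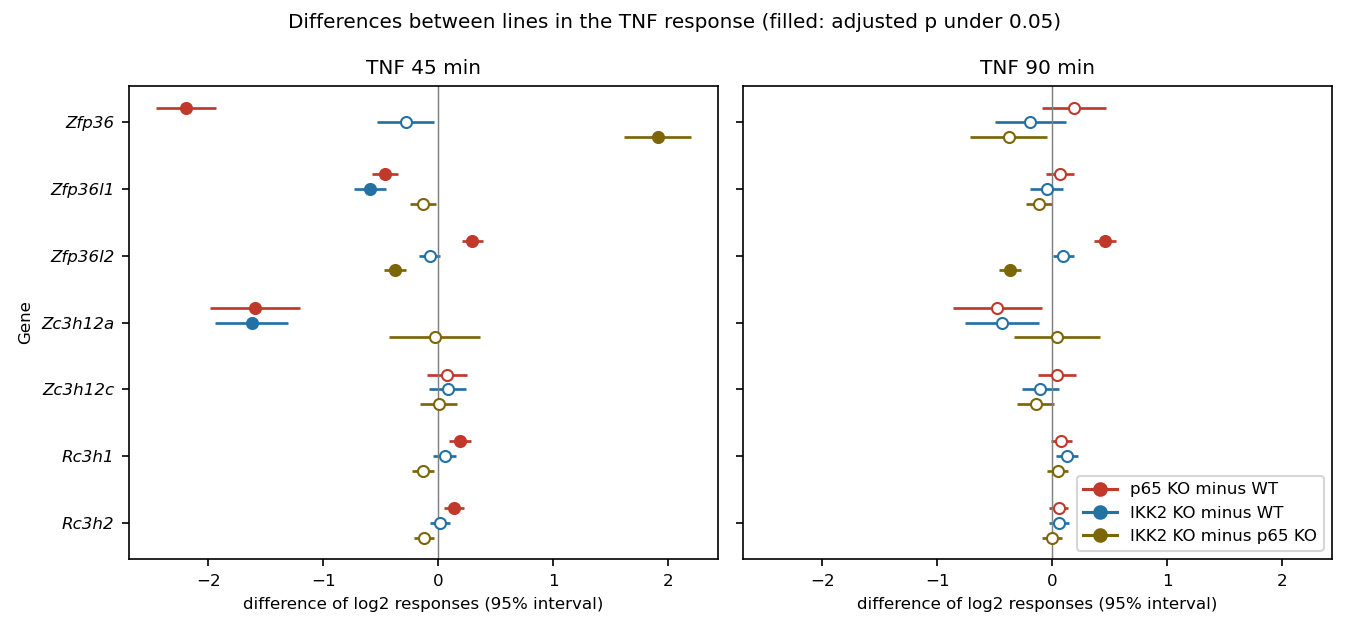
Difference between lines in the log2 response to TNF (horizontal axis, lines are 95% intervals) for each gene at 45 min (left) and 90 min (right), with filled points for an adjusted p under 0.05. At 45 min Zfp36 is far below WT in p65 KO (−2.19) and near it in IKK2 KO (−0.28), and Zc3h12a is far below WT in both (−1.59 and −1.62).

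Counted together, 3 of the 7 genes rose and 2 fell in WT at 45 min, where 5.73% of all tested genes rose and 6.45% fell. At 90 min 2 rose and 1 fell, beside 5.81% and 3.51% of all genes, and from 45 to 90 min 2 rose and 4 fell, beside 8.08% and 6.22%. In p65 KO 3 rose and none fell at 45 min, beside 1.17% and 0.49% of all genes, and at 90 min 2 rose and none fell, beside 4.06% and 2.42%. From 45 to 90 min none of the 7 was called in p65 KO by edgeR or DESeq2, and 3 had an unadjusted p under 0.05 in edgeR, where 2.27% of all genes rose and 0.453% fell. In IKK2 KO 2 rose and 3 fell at 45 min, beside 3.33% and 5.43%. At 90 min 1 rose and none fell there, beside 3.36% and 1.12%, and from 45 to 90 min 2 rose and 1 fell, beside 10.1% and 5.59%. The median log2 change of the 7 genes at 45 min was 0.01 in WT, 0.09 in p65 KO and −0.06 in IKK2 KO, beside medians over all tested genes of 0.01, −0.0039 and 0.

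Differences between lines were common throughout these cells. Between untreated p65 KO and WT 2 of the 7 genes were higher and 5 lower, but 39.8% of all genes were higher and 41.1% lower. For IKK2 KO against WT the counts were 4 and 2 (35.9% and 38.4% of all genes), and for IKK2 KO against p65 KO 3 and 2 (35.5% and 36.9%). Beside such backgrounds these counts say nothing particular of the 7 genes. For differences of the 45 min responses, 3 were higher and 3 lower in p65 KO than in WT (3.47% and 3.61% of all genes). None was higher and 2 were lower in IKK2 KO than in WT (2.05% and 2.82%), and 1 was higher and 1 lower in IKK2 KO than in p65 KO (2.24% and 3.67%). For 90 min, Zfp36l2 alone was called, higher in p65 KO than in WT (1.92% of all genes were higher and 3.47% lower) and lower in IKK2 KO than in p65 KO (0.956% and 0.717%). Between IKK2 KO and WT no member was called at 90 min by edgeR or DESeq2, and 3 had an unadjusted p under 0.05 in edgeR, where 0.833% of all genes were higher and 1.52% lower.

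Zfp36 moved like immediate-early genes. Among 4507 genes whose 9 group means spanned at least 1 on the log2 scale, the 5 most similar to it by Pearson correlation of log2 CPM over the 9 group means were Egr1 (0.970), Ier2 (0.963), Sesn2 (0.949), Fos (0.926) and Nfkbiz (0.924). Egr1 and Fos encode immediate-early transcription factors, and Nfkbiz encodes an IκB protein that acts in the nucleus. Egr1 went from 133 to 683 and back to 126 CPM in WT and from 41.6 to 327 and 39.0 CPM in IKK2 KO, but from 33.6 to 42.7 and 37.5 CPM in p65 KO. The closest to Zc3h12a was Birc3 (0.950), which encodes an inhibitor of apoptosis, followed by Cd47, Wsb1, Ccnl1 and Fosl1 (0.943 to 0.937). Birc3 went from 2.17 to 12.7 and 12.9 CPM in WT and from 5.55 to 7.12 and 11.8 CPM in IKK2 KO, and was at or below 0.601 CPM in p65 KO. For Zfp36l1 the 5 genes were Mdm1, Echdc3, Rrad, Rpp25l and Ccdc141 (0.983 to 0.979), and for Zfp36l2 Osgep, Scrn3, Rttn, Bmper and Lmbr1 (0.990 to 0.983). These correlations describe 9 means that share libraries and 3 lines, and for Zfp36l1 and Zfp36l2 they follow the differences between the lines.

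**Figure D5:**
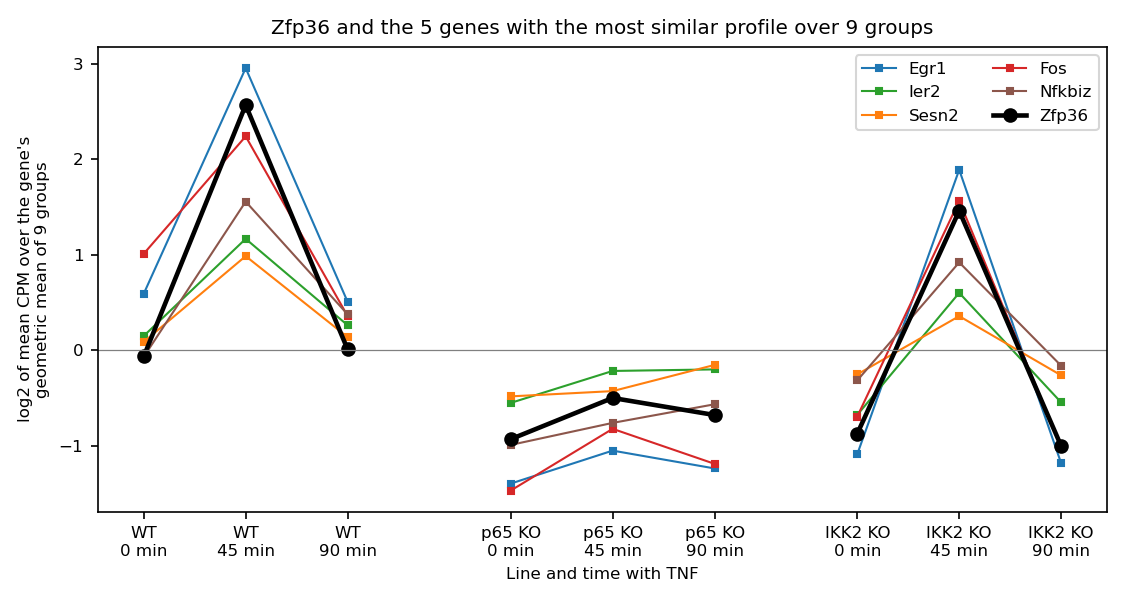
Log2 of the mean CPM of each gene over its geometric mean of the 9 groups (vertical axis) by line and minutes of TNF, for Zfp36 (thick black line) and the 5 genes with the most similar profile. All peak at 45 min in WT and IKK2 KO and are low in p65 KO, where none shows a peak of that size.

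Of 24 genes of the deadenylation and decapping machinery that the decay factors recruit, 1 rose and 2 fell in WT at 45 min, with a median log2 change of −0.02 beside 0.01 over all genes. These 3 are 12.5% of the list, a share near that of all genes (5.73% rose and 6.45% fell). Pan2, a subunit of a deadenylase, rose by 0.29 ± 0.07, and Cnot11 (−0.19 ± 0.06), a CCR4-NOT subunit, and Upf1 (−0.14 ± 0.03), a helicase of nonsense-mediated decay that also works with Regnase-1, fell. With DESeq2 Pan2 (adjusted p = 0.0701) and Cnot11 (adjusted p = 0.173) were not called, and Upf1 was. In IKK2 KO Pan3 fell at 45 min (−0.13 ± 0.04, adjusted p = 0.019) and no other gene of the list was called. That call was lost with DESeq2 (adjusted p = 0.154). Over all genes 3.33% rose and 5.43% fell in IKK2 KO at 45 min. In p65 KO none of the 24 was called at 45 min by edgeR or DESeq2, and 2 had an unadjusted p under 0.05 in edgeR. Few genes were called there at all, as 1.17% of all genes rose and 0.49% fell. From 45 to 90 min 3 of the 24 rose and 1 fell in WT (none with DESeq2), 2 rose in p65 KO (none with DESeq2), and 3 rose and 1 fell in IKK2 KO (1 and 1 with DESeq2). Over all genes 8.08% rose and 6.22% fell in WT in that interval. In p65 KO these shares were 2.27% and 0.453%, and in IKK2 KO 10.1% and 5.59%. At 90 min against untreated 2 rose in WT, 2 in p65 KO and 3 in IKK2 KO, beside 5.81%, 4.06% and 3.36% of all genes. DESeq2 called none of the list at 90 min against untreated.

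Of 11 other RNA-binding factors tested, Arid5a and Tial1 rose and Celf1 fell in WT at 45 min, with a median log2 change of −0.01 over the list, beside 5.73% of all genes that rose and 6.45% that fell. The fall of Celf1 was small (−0.09 ± 0.03, adjusted p = 0.0463) and was lost with DESeq2 (adjusted p = 0.137). In IKK2 KO Celf1 changed by −0.14 ± 0.03 at 45 min (adjusted p = 0.000498) and rose by 0.20 ± 0.03 from 45 to 90 min (adjusted p = 5.21e-07). Its 45 min change in p65 KO was −0.02 ± 0.03 (adjusted p = 0.767). Arid5a, whose product protects stem-loop mRNAs that Regnase-1 would cut, rose at 45 min by 0.33 ± 0.06 in WT and 0.78 ± 0.07 in IKK2 KO. The IKK2 KO response at 45 min was 0.45 ± 0.09 larger (adjusted p = 0.000829). At 90 min the rises of Arid5a were 0.56 ± 0.05 in WT and 0.46 ± 0.08 in IKK2 KO, a difference of −0.09 ± 0.09 (adjusted p = 0.793). In p65 KO Arid5a changed by 0.24 ± 0.11 at 45 min (adjusted p = 0.332) and rose by 0.52 ± 0.10 at 90 min (adjusted p = 0.000333). These p65 KO responses differed from those of WT by −0.09 ± 0.12 (adjusted p = 0.774) and −0.03 ± 0.11 (adjusted p = 0.953). Its untreated level was 38.5 CPM in WT, 20.2 CPM in IKK2 KO and 7.999 CPM in p65 KO. Of 9 regulators of the decay factors, Bcl10 (0.66 ± 0.06), Mapkapk3 (0.50 ± 0.11) and Malt1 (0.32 ± 0.08) rose in WT at 45 min, and the median of the list was 0.04. DESeq2 called Bcl10 and Mapkapk3 and not Malt1 (adjusted p = 0.0796). MALT1 is the protease that cleaves Regnase-1, BCL10 is its partner, and MAPKAPK3 is a p38-dependent kinase related to the one that phosphorylates tristetraprolin. All 3 responses were smaller in p65 KO than in WT, with differences of −0.49 ± 0.08, −0.51 ± 0.14 and −0.39 ± 0.11 for Bcl10, Mapkapk3 and Malt1. With DESeq2 the difference for Bcl10 was called, and those for Mapkapk3 (adjusted p = 0.185) and Malt1 (adjusted p = 0.172) were not. In IKK2 KO mean levels went from 55.2 to 61.2 CPM (Bcl10), 1.07 to 0.960 CPM (Mapkapk3) and 10.3 to 9.93 CPM (Malt1) at 45 min. The same step in WT was from 32.8 to 51.9, 7.48 to 10.5 and 14.3 to 17.9 CPM.

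Several mRNAs known as targets of the decay factors rose. Tnf, the best-known ZFP36 target, and Il6, a Regnase-1 target, did not pass the low-count filter, with highest group means of 0.0830 and 0.400 CPM. Both target lists were chosen with earlier results of these data known, so counts beside the shares of all genes do not test the lists. Of 14 tested ZFP36 targets, 8 rose and 2 fell in WT at 45 min, beside 5.73% and 6.45% of all genes. Among those that rose, Cxcl1 and Cxcl2 reached only 0.705 and 0.999 CPM in WT at 45 min. In p65 KO 7 rose and none fell, beside 1.17% and 0.49%, and in IKK2 KO 7 rose and 1 fell, beside 3.33% and 5.43%. DESeq2 called 7 and 2 in WT, where it gave Cxcl2 no adjusted p, 5 and none in p65 KO, where Vegfa and Myc were lost, and 7 and 1 in IKK2 KO. In WT Ccl2, a chemokine, went from 0.112 to 62.4 CPM and was at 49.7 CPM at 90 min. Lif, a cytokine, rose by 2.36 ± 0.08, Ier3 by 1.34 ± 0.04 and Fos by 1.22 ± 0.10. In IKK2 KO Cxcl1, a chemokine, rose by 2.63 ± 0.09, Fos by 2.25 ± 0.16, Ccl2 by 1.95 ± 0.06 and Ier3 by 1.17 ± 0.05. In p65 KO Cxcl1 rose by 1.43 ± 0.10, Lif by 0.99 ± 0.11, Ptgs2, the inducible cyclooxygenase, by 0.54 ± 0.02 and Ier3 by 0.52 ± 0.03. Without the genes at 0 counts in a group, the median log2 change of the list was 0.18 in WT, 0.35 in p65 KO and 0.16 in IKK2 KO at 45 min, beside 0.01, −0.0039 and 0 over all genes. The p65 KO median is the value of Il2 (0.35 ± 0.40, adjusted p = 0.809), a gene at 0.436 CPM untreated and 0.556 CPM at 45 min in that line. Its size is therefore not comparable with that of WT.

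The targets did not share 1 time course between 45 and 90 min. In WT Fos fell by 1.88 ± 0.11 (log2 change −1.88) and Ier3 by 0.39 ± 0.04 (−0.39), while Vegfa rose by 1.91 ± 0.04 and Lif by 0.73 ± 0.05. The targets that were lower at 45 min than in untreated WT were Vegfa (−0.92 ± 0.04) and Notch1 (−0.55 ± 0.05). At 90 min Vegfa was 0.99 ± 0.04 above untreated WT. In IKK2 KO Fos fell by 2.56 ± 0.16 (−2.56), Cxcl1 by 0.96 ± 0.07 (−0.96) and Myc by 0.89 ± 0.03 (−0.89), while Lif rose by 2.18 ± 0.10. In that line Lif had been below untreated at 45 min (−0.92 ± 0.12) and was 1.26 ± 0.09 above it at 90 min. In p65 KO 7 of the 14 rose from 45 to 90 min (5 with DESeq2, and 2.27% of all genes), such as Ccl2 (0.96 ± 0.14) and Lif (0.93 ± 0.08). RNA stability was not measured, so synthesis and decay cannot be told apart.

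Of 7 tested Regnase or Roquin targets, 3 rose and 1 fell in WT at 45 min (beside 5.73% and 6.45% of all genes), 1 rose in p65 KO (1.17%) and 2 rose in IKK2 KO (3.33%), and DESeq2 gave the same counts. In WT Nfkbid, which encodes another nuclear IκB protein, was the third that rose (2.25 ± 0.21) and Tfrc the one that fell (−0.13 ± 0.03). Nfkbid was at 0 CPM in every group of both knock-out lines, and Il2 and Tnfrsf4 reached at most 0.578 and 0.943 CPM in any group. The counts of the 3 lines therefore do not cover the same expressed genes. Nfkbiz rose by 1.62 ± 0.06 in WT and by 1.23 ± 0.08 in IKK2 KO, and Rel, an NF-κB subunit, by 1.51 ± 0.05 and 0.40 ± 0.05. Tfrc, the transferrin receptor, rose by 0.13 ± 0.03 in p65 KO. From 45 to 90 min Nfkbid (−1.44 ± 0.19), Nfkbiz (−1.17 ± 0.06) and Rel (−0.32 ± 0.04) fell in WT. In the same interval Nfkbiz fell in IKK2 KO (−1.08 ± 0.07), while Rel (0.37 ± 0.05) and Tfrc (0.22 ± 0.03) rose.

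Of the 7 genes, 4 share exonic bases with a gene on the other strand, and the strand setting of the counting is not given in the sources used here. Gm44710, over Zfp36, had at most 35 counts in a library, Gm26669, over Zfp36l1, and AC132455.1, over Zfp36l2, at most 6, and Mir6244, over Zc3h12c, at most 1. Reads of such partners cannot be told apart where strand was not used.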

How the data were processed

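The deposited table holds expected counts per gene by the authors, not scaled for depth, for 18 libraries, and 31.8% of its non-zero values are fractional. FastQC 0.11.8, HISAT2, featureCounts of Subread 1.6.2, edgeR 3.26.4 and the GRCm38 build are named in the submitters' processing notes. The labels' protocols give Trizol RNA, a directional total RNA kit and paired-end reads. For the strand setting, for multi-mapping reads and for the annotation used in counting, the choice is not given in the sources used here. The columns name the group and a library code that no label gives, so libraries were called a and b in column order.

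Counts were rounded to whole numbers, filtered with filterByExpr (16322 of 55536 genes kept, 0.0601% of counts lost) and scaled by TMM. In edgeR 4.0.16 (R 4.3.3), a robust quasi-likelihood model with 1 coefficient per group was fitted over all 18 libraries, and 18 contrasts were adjusted by Benjamini-Hochberg within each contrast at 0.05. A change counted as higher or lower where it passed that threshold. The biological coefficient of variation was 1.93%, residual degrees of freedom 9 and prior degrees of freedom 32.2. Libraries held 16708346 to 23469439 counts, and the scarcest member, Zc3h12a, had at least 65 in each. Over genes with at least 20 counts, the chi-square between libraries of a pair, divided by its degrees of freedom, was 1.13 to 4.27. The pipeline was tested on simulated data with planted changes of 1.5-fold and more. At 1.5-fold it recovered 94% for WT at 45 min and 84% for the 45 min difference between p65 KO and WT. Of the calls, 19 of 215 and 11 of 201 in the same order were of genes without a planted change. Smaller changes were not planted.

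Gene positions, exon lengths and 3′UTRs came from GENCODE M21, in which all 55536 gene IDs were found, and promoters from RefSeq (GRCm38.p6). Alternatives were RLE scaling, DESeq2 1.42.0, no low-count filter, only the libraries compared, and leaving out each library. All 7 members were described whatever their values. From 5 pathway lists up to 4 called genes with the largest change were eligible to be named, if the higher group reached 2 CPM on average. Similar genes were the 5 with the highest correlation among genes reaching 5 CPM in a group. The members and lists were chosen with earlier results of these data known. Figures were drawn with matplotlib 3.10.9.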

Additional observations from a re-analysis of the deposited data

Results flagged for a closer look

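In a contrast of the difference itself, 6 of the 7 genes differed between p65 KO and WT in their 45 min response. Over all tested genes 3.47% were higher and 3.61% lower there (edgeR quasi-likelihood test, adjusted p under 0.05). At 45 min the p65 KO response minus the WT response was −2.195 for Zfp36 (adjusted p = 1.45e-17), −0.4642 for Zfp36l1 (3.87e-08), 0.2991 for Zfp36l2 (7.57e-06), −1.592 for Zc3h12a (2.93e-08), 0.1886 for Rc3h1 (0.00538) and 0.1375 for Rc3h2 (0.0398) on the log2 scale. At 90 min it was 0.4611 for Zfp36l2 (5.34e-10). The IKK2 KO response minus the WT response at 45 min was −0.5958 for Zfp36l1 (1.29e-08) and −1.623 for Zc3h12a (1.11e-10). The IKK2 KO response minus the p65 KO response was 1.912 for Zfp36 (1.22e-13) and −0.3736 for Zfp36l2 (2.93e-07) at 45 min, and −0.3636 for Zfp36l2 (2.59e-06) at 90 min. The calls for Rc3h1 and Rc3h2 did not hold in every alternative, as given with their values. Groups of 2 libraries are too small for a test of outlying libraries.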

How the results depend on the processing

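No change of the 7 genes that was called reversed its direction in any alternative. No paired analysis was possible because the count columns carry the group and a library code, but no replicate number. The number of members called moved by more than 1.5 times in 4 cases: with only the libraries compared, 1 gene in place of 0 was called in p65 KO from 45 to 90 min, and 2 in place of 1 in IKK2 KO at 90 min, where leaving out the low-count filter also gave 2, and on leaving out p65 KO untreated library b 2 in place of 1 differed between p65 KO and WT at 90 min (1 to 2 over the libraries left out). The cause was not tested. Of the 126 member results, DESeq2 lost 3 calls, RLE scaling 1, no filter 2 and only the libraries compared 1, while no filter added 2 calls and only the libraries compared 4. With 1 library left out, 652 results kept their side of the threshold, 16 lost a call and 4 gained one.

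Counts over all genes depend more on the tool. DESeq2 called 1114 genes in place of 1988 in WT at 45 min, 844 of 1521 at 90 min and 1289 of 2334 from 45 to 90 min. In p65 KO it called 155, 435 and 174 in place of 271, 1058 and 445, and in IKK2 KO 811, 408 and 1536 in place of 1430, 732 and 2566. For the differences from WT it called 691 and 489 in place of 1156 and 880 (p65 KO, 45 and 90 min) and 467 and 210 in place of 794 and 384 (IKK2 KO), and for IKK2 KO against p65 KO 524 and 142 in place of 965 and 273. In p65 KO at 45 min 533 genes were called with only the libraries compared, and 97 to 186 with 1 library left out. With 1 library left out, the lowest counts were 452 at 90 min and 164 from 45 to 90 min in p65 KO, 901 and 391 at 45 and 90 min in IKK2 KO, 581 for p65 KO against WT at 90 min, and 615 and 126 for IKK2 KO against p65 KO at 45 and 90 min. In these fits the lone library of a group is assumed to vary like the other groups. Depth limits Zc3h12a, the gene with the fewest counts, whose TNF responses had standard errors of 0.10 to 0.16 on the log2 scale.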
